A study of Mus musculus with 3 samples.

Results

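Myeloid progenitors that make azurophil granules were looked for in 3 single-cell libraries of mouse liver. They were chosen by their UMIs in marker genes, as barcodes with at most 30% mitochondrial UMIs (unique molecular identifiers, 1 for each captured RNA molecule), with at least 3 UMIs in Mpo, Ctsg, Elane, Prtn3 and Ms4a3 together from 2 or more of these genes, and with 0 UMIs in Cd3e, Cd79a, Clec4f and Retnlg. The 4 excluded genes mark T cells, B cells, Kupffer cells and mature neutrophils. The rule found 276 of 36990 barcodes, called members here: 232 of 11245 in the control library, 37 of 12984 in the high-fat diet library and 7 of 12761 in the CCl4 library.

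Each library was 1 condition and pooled the liver cells of 2 male wild-type C57BL/6J mice, 8 weeks old at the start. Control mice were left untreated, high-fat diet mice were fed 60% of energy as fat for 4 months, and CCl4 mice had 3 months of chow and then intraperitoneal injections of 0.1 mL of 10% carbon tetrachloride, a liver toxin, 2 per week for 4 weeks. Livers were digested with collagenase, hepatocytes and nonparenchymal cells were mixed 1:1, and 3′ ends were sequenced on the 10x Chromium. With 1 library a condition there were no replicates, so no test was possible and no p-value is given. All intervals are exact 95% intervals for counting error alone, and a difference between libraries cannot be told apart from one between pools of mice, digestions or runs.

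Azurophil granules are the first granules that a developing neutrophil fills, at the promyelocyte stage, and they carry myeloperoxidase and a family of serine proteases. The genes for these proteins are active in granulocyte and monocyte progenitors, which divide in bone marrow, and are shut off before the cells make specific and gelatinase granules and leave for the blood. The adult liver is not a usual site of this stage, although it made blood cells before birth.

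Mpo encodes the heme enzyme that makes hypochlorous acid, Elane, Prtn3 and Ctsg encode neutrophil elastase, proteinase 3 and cathepsin G, and Ms4a3 encodes a membrane protein of granulocyte and monocyte progenitors. In GRCm38 with GENCODE M21, Prtn3 (ENSMUSG00000057729, chr10:79874476-79883174) and Elane (ENSMUSG00000020125, chr10:79886247-79888215) lie on the plus strand 3073 bp apart. Mpo (ENSMUSG00000009350) lies at chr11:87793581-87804413 on the plus strand, Ctsg (ENSMUSG00000040314) at chr14:56099881-56102574 on the minus strand and Ms4a3 (ENSMUSG00000024681) at chr19:11629496-11640851 on the minus strand. Their promoters are shown because these 5 genes define the members. The RefSeq windows of GRCm38.p6, from 250 bases before to 50 after the start, are Prtn3 chr10:79879417-79879716, Elane chr10:79886062-79886361, Mpo chr11:87793534-87793833, Ctsg chr14:56102525-56102824 and Ms4a3 chr19:11640802-11641101, each printed 5′ to 3′ on its gene's strand. The RefSeq start of Prtn3 lies inside the longer GENCODE gene. Capitals mark matches, on either strand, to AGGAAGT (PU.1), CAACNG (MYB), ACCACA (RUNX) and TTGCNNAA (C/EBP), letters chosen after the promoters had been seen.
Prtn3: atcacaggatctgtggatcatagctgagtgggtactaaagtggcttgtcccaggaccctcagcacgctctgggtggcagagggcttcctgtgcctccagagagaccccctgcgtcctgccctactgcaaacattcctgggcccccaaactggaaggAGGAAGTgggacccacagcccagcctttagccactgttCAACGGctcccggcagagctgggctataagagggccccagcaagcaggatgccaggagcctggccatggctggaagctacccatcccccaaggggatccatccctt
Elane: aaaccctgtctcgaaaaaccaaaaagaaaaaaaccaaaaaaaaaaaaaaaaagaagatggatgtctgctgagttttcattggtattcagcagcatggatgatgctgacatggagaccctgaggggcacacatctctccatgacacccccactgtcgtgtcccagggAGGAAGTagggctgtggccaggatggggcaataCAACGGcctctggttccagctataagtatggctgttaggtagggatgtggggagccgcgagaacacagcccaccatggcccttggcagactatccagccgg
Mpo: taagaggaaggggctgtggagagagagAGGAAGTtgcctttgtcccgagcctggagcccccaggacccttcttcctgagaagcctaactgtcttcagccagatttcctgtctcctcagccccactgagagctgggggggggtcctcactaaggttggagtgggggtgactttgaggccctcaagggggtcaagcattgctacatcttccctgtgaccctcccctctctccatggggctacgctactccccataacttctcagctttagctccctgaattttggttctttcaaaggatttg
Ctsg: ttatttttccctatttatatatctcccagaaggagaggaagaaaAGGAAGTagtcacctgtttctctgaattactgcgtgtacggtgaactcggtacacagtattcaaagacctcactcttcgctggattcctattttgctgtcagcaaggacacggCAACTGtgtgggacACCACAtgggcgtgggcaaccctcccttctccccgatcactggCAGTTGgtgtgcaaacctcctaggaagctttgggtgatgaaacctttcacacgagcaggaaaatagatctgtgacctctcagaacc
Ms4a3: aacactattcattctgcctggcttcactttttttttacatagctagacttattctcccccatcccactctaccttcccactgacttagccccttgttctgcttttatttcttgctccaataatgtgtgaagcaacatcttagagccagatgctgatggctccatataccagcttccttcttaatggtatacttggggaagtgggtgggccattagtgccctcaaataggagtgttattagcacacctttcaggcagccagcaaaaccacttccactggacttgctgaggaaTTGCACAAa

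AGGAAGT occurred in 4 of the 5 windows, at −94 in Prtn3, −84 in Elane, −223 in Mpo and −206 in Ctsg, counted from the start base as 0, and in 9.35% of 32851 RefSeq promoters of this length. Prtn3 and Elane held it together with CAACGG, a match to CAACNG, at −56 and −51. CAACNG also matched Ctsg at −93 and, on the other strand, at −36, and occurred in 35.0% of all promoters. ACCACA was in Ctsg alone, at −79, against 16.8% of all promoters, and TTGCNNAA in Ms4a3 alone, at 41 bases past the start, against 10.8%. A match is only a run of letters, and none of these positions was measured for binding.

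Members formed 2.06% (1.81 to 2.34) of the control barcodes, 0.285% (0.201 to 0.393) in the high-fat diet library and 0.0549% (0.0221 to 0.113) in that of CCl4. The 3 intervals did not overlap. In the same order, neutrophil-rule barcodes, those with at least 3 UMIs from 2 or more of Retnlg, Csf3r, Cxcr2, Il1r2 and Mmp9, formed 4.67%, 2.14% and 0.376% of barcodes. Monocyte-rule barcodes, chosen in the same way by Ly6c2, Ccr2, F13a1, Vcan and Ms4a6c, formed 2.78%, 5.43% and 1.53%. Both classes left out members and barcodes with a UMI of Cd3e, Cd79a or Clec4f. Monocyte-rule barcodes also held no UMI of Retnlg or Siglech. Members and neutrophil-rule barcodes were thus both ordered control, high-fat diet, CCl4, while monocyte-rule barcodes were most common on the high-fat diet. T cell-rule barcodes, defined below, had the same order as members, at 15.7%, 10.8% and 8.54%. Barcodes with at least 5% of their UMIs in the hepatocyte genes given below ran the other way. Outside the members they were 5590 of 11013 barcodes in control, 12605 of 12947 in high-fat diet and 12715 of 12754 in CCl4. Their part in these orders was not tested.

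The share depends on depth, since a barcode needs 3 UMIs to enter. The median barcode of all kinds held 2939 UMIs in control, 2336 in high-fat diet and 2173 in CCl4 livers, against 8481.5, 5743 and 4438 in the members. The control library held 49613255 UMIs, the high-fat diet library 34985786 and the CCl4 library 34061186. No doublet caller was used. Without the 8% of barcodes with the most UMIs, members were 1.48% of control and 0.0693% of high-fat diet barcodes, so that most high-fat diet members were among the largest barcodes of their library.

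The values that chose the members are given only as a description. A control member held 3 to 527 UMIs in the 5 genes, with a median of 47.5. High-fat diet members had a median of 21 (3 to 273), and CCl4 members of 11 (4 to 87). All 5 genes were seen in 114 of the 232 control members, 16 of 37 high-fat diet members and 2 of 7 CCl4 members.

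**Figure D1:**
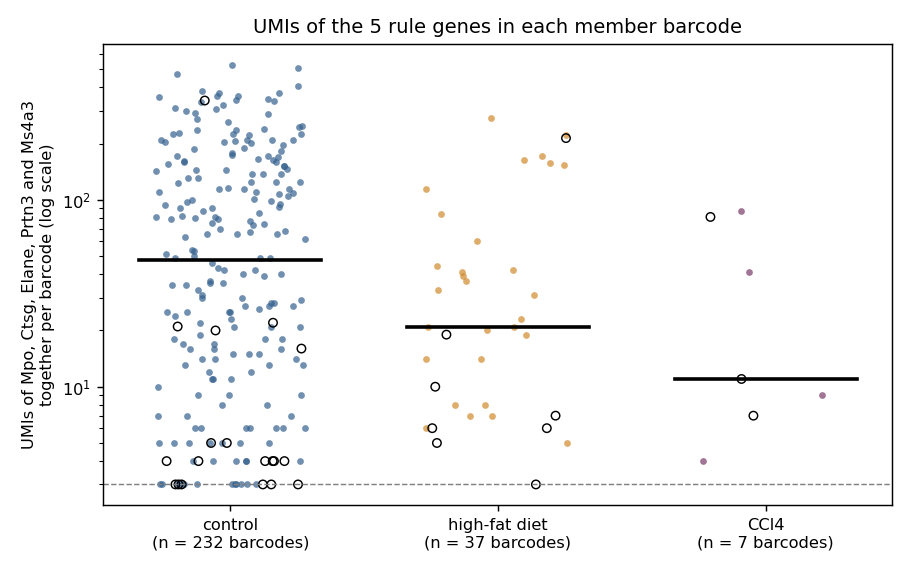
UMIs of the 5 rule genes together in each member barcode (log axis), by library; lines are medians, the dashed line is the minimum of 3 and open circles are members with at least 5% of their UMIs in hepatocyte genes. Control members spread from 3 to 527 UMIs around a median of 47.5, and many of the open circles lie near the minimum.

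Mpo summed to 1641 CPM (UMIs per 1000000 UMIs of the class) in control members, 909 in high-fat diet and 1911 in CCl4 members, and was seen in 177, 24 and 6 members. Elane stood at 3805, 3692 and 2179 CPM, in 187, 30 and 4 members. Prtn3 was at 3585, 3278 and 2090 CPM, in 225, 37 and 6 members. The 2 neighbouring protease genes thus had like levels to each other in each library. Ctsg was at 880, 1368 and 657 CPM, in 181, 30 and 7 members. Ms4a3 was at 325, 436 and 328 CPM, in 141, 20 and 2 members.

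Among the 232 control members, Spearman's rho between pairs of the 5 genes ran from 0.61 for Ctsg and Elane to 0.86 for Elane and Prtn3, a description of barcodes that share 1 library and differ in depth. Members held most of the UMIs of these genes in the control library, with 88.0% of Mpo, 89.8% of Ctsg, 90.8% of Elane and 86.9% of Ms4a3. Prtn3 was the exception, with 68.6% in members. Outside the members, Prtn3 was seen in 18.8% of control barcodes and Elane in 1.02%.

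The ratio of Prtn3 to Elane UMIs was 0.942 (0.913 to 0.972) in control members. It was 1.55 (1.41 to 1.69) in other barcodes with under 5% hepatocyte UMIs, and 49.7 (37.3 to 67.8) in other barcodes with at least 5%. The latter 5590 barcodes held 2336 Prtn3 UMIs against 47 of Elane. The rule used both genes and left out barcodes with Prtn3 alone, so these ratios are a description, and where the Prtn3 RNA of the hepatocyte-rich barcodes comes from was not tested. Of 144 control barcodes just outside the rule because all their 3 or more rule UMIs came from 1 gene, 140 held Prtn3 alone, and their hepatocyte genes summed to 81533 CPM. A further 33 control barcodes had 2 rule UMIs from 2 genes, and 32 met the UMI rule but held 1 or more excluded genes, Retnlg in 20, Cd3e in 10, Cd79a in 6 and Clec4f in 1. Just inside the rule, 19 control members held exactly 3 rule UMIs.

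RNA of other cells was present in the members. The 8 hepatocyte genes (Alb, Apoa1, Apoa2, Ttr, Fabp1, Cyp2e1, Fgb, Trf) summed to 15348 CPM in control, 37945 in high-fat diet and 55799 in CCl4 members. The ratio of high-fat diet to control members, 2.47, ran from 1.79 with a minimum of 2 rule UMIs to 4.21 without the members that held at least 5% of their UMIs in this list. T cell-rule barcodes, with at least 2 UMIs from 2 or more of Cd3e, Cd3d, Cd3g and Trac, should lack these genes and give the background. They held 28693, 89324 and 111690 CPM. Members thus stood below T cell-rule barcodes in each library and both were ordered control, high-fat diet, CCl4. The T cell rule left out no myeloid gene. Its control barcodes held 177 UMIs of Mpo, 50 of Ctsg and 283 of Elane, and its high-fat diet barcodes 0 of each. The hepatocyte share was largest near the threshold, with 46137 CPM in the 40 control members of 3 to 5 rule UMIs and 7560 CPM in the 82 with at least 100.

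Other lineages were rare. For T cells, B cells and Kupffer cells this is set in part by the rule, which allowed no UMI of Cd3e, Cd79a or Clec4f. Kupffer cell and macrophage genes summed to 36.5 CPM in control members, in 17 barcodes, with C1qb as the most abundant gene, with 28 UMIs, and 4 of the 8 genes at 0. T cell genes had 18 UMIs, fibroblast genes 2 UMIs and Siglech, of plasmacytoid dendritic cells, none. Erythroid genes, led by Hbb-bs, summed to 121 CPM against 3342 in T cell-rule barcodes. B cell genes summed to 116 CPM, of which Ighm gave 217 of 251 UMIs, and endothelial genes to 48.5 CPM, of which Pecam1 gave 95 of 105 UMIs. Ighm and Pecam1 are also made outside those lineages. Of the NK cell list, Nkg7, a granule membrane protein gene, gave 394 of 435 UMIs. Bst2 gave 369 of the 612 UMIs of the plasmacytoid dendritic cell list, and lymphoid precursor genes had 11 UMIs. The libraries shared 36 barcode sequences between control and high-fat diet, 49 between control and CCl4 and 52 between high-fat diet and CCl4, and none was a member in both.

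Genes of dividing cells were higher in members than in neutrophil-rule barcodes of the control library. A gene was called where its ratio of CPM plus 5 passed 2-fold, among genes with at least 50 CPM on either side, as a rule of size and not a test. Of 3863 genes tested, 26.1% were called higher and 19.2% lower in members. All 14 S phase genes tested (of 18 listed) and all 15 G2 and M phase genes tested (of 19) were called higher. Most of them lay under 50 CPM in neutrophil-rule barcodes, so they entered through the members and could not have been called lower. Over these filtered genes, the median log2 ratio was 2.95 for S phase and 2.54 for G2 and M phase, beside 0.34 for all genes tested.

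S phase genes, which copy DNA, summed to 2137 CPM in members and 254 in neutrophil-rule barcodes, a ratio of 8.43 (7.70 to 9.24). G2 and M phase genes, which build the spindle and condense chromosomes, summed to 2557 and 377 CPM, a ratio of 6.77 (6.28 to 7.31). Both lists were several-fold higher than the background class. Mki67, a marker of cycling cells, stood at 263 CPM in members, 36.4 in neutrophil-rule, 124 in monocyte-rule and 53.8 in T cell-rule barcodes. It was seen in 63.8% of members and 4.74% of T cell-rule barcodes, whose median depths were 8481.5 and 2520 UMIs, and in 20.5% and 2.12% when each barcode was thinned to 1000 UMIs. Top2a, topoisomerase of mitotic chromosomes, stood at 432, 46.1, 198 and 71.0 CPM in the same 4 classes.

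The high-fat diet library showed the same separation within itself, where 31.1% of 3731 genes were called higher and 17.3% lower. All 14 S phase genes tested and all 15 G2 and M phase genes tested were called higher there. Nearly all of them reached the minimum of 50 CPM only through the members and could not have been called lower, so the summed levels describe the difference better than this tally. The S phase list was at 1887 CPM in members and 76.1 in neutrophil-rule barcodes, a ratio of 24.8 (18.6 to 33.7). The G2 and M list was at 2452 and 115 CPM, a ratio of 21.3 (16.8 to 27.3).

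Ribosome biogenesis genes were higher as well. All 5 tested in the control (Npm1, Ncl, Nop58, Fbl, Dkc1) were called higher, and the list of 6 summed to 2677 against 524 CPM, a ratio of 5.11 (4.79 to 5.46). Npm1, a nucleolar chaperone of ribosome assembly, was at 1635 CPM in members, 289 in neutrophil-rule and 679 in monocyte-rule barcodes. Endoplasmic reticulum folding genes, which serve secreted and granule proteins, summed to 9289 against 4278 CPM, a ratio of 2.17 (2.12 to 2.23), with 6 of 12 called higher (Hspa5, Ssr4, Sec61b, Calr, Pdia6, Sdf2l1). Calr, a chaperone on which myeloperoxidase folding relies, stood at 1240 CPM in members against 500 in neutrophil-rule and 605 in monocyte-rule barcodes. Heme synthesis genes, which make the cofactor of myeloperoxidase, were not higher: 1 of 4 tested, Alad, was called lower and none higher, and the list stood at 251 against 318 CPM.

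Early progenitor genes were low in level but above the background classes. They summed to 420 CPM (393 to 448) in control members, 81.1 in neutrophil-rule, 143 in monocyte-rule and 118 in T cell-rule barcodes, where Ly6a gave 490 of 666 UMIs. Only Cd34 and Sox4 of the 9 genes were abundant enough to be tested against neutrophil-rule barcodes, and both were called higher. Cd34 reached the minimum of 50 CPM through the members alone, so it could not have been called lower. Cd34, the surface marker of blood progenitors, was at 114 CPM in members, 8.74 in neutrophil-rule, 21.8 in monocyte-rule and 1.60 in T cell-rule barcodes. It was seen in 40.1% of members and 0.395% of T cell-rule barcodes, and in 9.72% and 0.0592% after thinning. Kit, the stem cell factor receptor, was at 47.1 CPM in 67 control members, against 10.7 in neutrophil-rule barcodes. Flt3, the receptor of another progenitor growth factor, was at 28.2 CPM in 38.

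Of 10 transcription factors of myeloid development tested, 6 were called higher than in neutrophil-rule barcodes (Klf4, Gata2, Myb, Irf8, Myc, Runx1) and 1 lower (Cebpb). At least Gata2 and Myb reached the minimum of 50 CPM through the members alone and could not have been called lower. Of the 142 Gata2 UMIs, 126 lay in the 8 members with basophil genes. Myb, needed for progenitor growth, was at 222 CPM in members, 13.1 in neutrophil-rule, 9.90 in monocyte-rule and 48.6 in T cell-rule barcodes. Irf8, which directs progenitors to the monocyte and dendritic lines, was at 367, 118, 321 and 106 CPM in the same order. Cebpb, which acts later in granulocytes, was at 1305 CPM in members and 2885 in neutrophil-rule barcodes. Spi1, which encodes PU.1, was at 235 and 281 CPM and Cebpa, the factor that starts the granulocyte program, at 105 and 97.6 CPM, and neither was called.

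Receptors for growth factors were mostly near those of the comparison class. Csf1r, the M-CSF receptor, was the 1 gene called higher of 4 tested, at 53.1 CPM against 21.9. It reached the minimum of 50 CPM through the members alone and could not have been called lower. Csf2ra, a chain of the GM-CSF receptor, was at 104 and 97.6 CPM. Csf3r, the G-CSF receptor and itself a gene of the neutrophil rule, was at 41.1 CPM in members. Il3ra, of the interleukin 3 receptor, was at 27.2 CPM and too low to be tested.

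Later granule and neutrophil genes were lower in members. Camp, the cathelicidin of specific granules, was at 2025 CPM in members and 4015 in neutrophil-rule barcodes, and was not called. Ltf, lactoferrin, was at 26.8 against 788 CPM and Mmp8, neutrophil collagenase, at 12.9 against 605 CPM. Together, specific and gelatinase granule genes without Lcn2 stood at a ratio of 0.351 (0.341 to 0.360), with 4 of 7 tested called lower and Fcnb alone higher. Ltf and Mmp8 reached the minimum of 50 CPM only through neutrophil-rule barcodes and could not have been called higher. Fcnb reached it only through the members and could not have been called lower. The rule leaves out barcodes with Retnlg, a gene that also chose the neutrophil-rule barcodes, and the ratio was 0.558 with no limit on the 4 excluded genes and 0.541 without the 8% of barcodes with the most UMIs. Lcn2 was set apart after the data had been seen, because T cell-rule barcodes held it at 915 CPM against 635 in members. Fcnb, ficolin B, was at 153 CPM in members and 18.5 in neutrophil-rule barcodes. S100a8 and S100a9, the calprotectin subunits of maturing neutrophils, stood at 4600 and 4725 CPM in members against 28006 and 31326.

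Of the azurophil genes that the rule did not use, 5 of 7 tested were called higher than in neutrophil-rule barcodes and none lower. They were Ctsc, the protease that activates the granule serine proteases, Cst7, Gusb, Cd63 and Serpinb1a, an inhibitor of elastase. Ctsc was at 349 against 151 CPM and Serpinb1a at 160 against 57.3. Prss57, a further granule serine protease, was too low to be tested, at 46.2 CPM in 56 members against 4.86. Bpi was at 0 in members of each library. The list as a whole stood at a ratio of 0.952 (0.921 to 0.984), since it is led by Srgn, at 1383 against 1692 CPM, and Lyz2, at 990 against 1439.

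By the rule of size, the 12 genes highest in members against neutrophil-rule barcodes were Pf4, Prss34, Mcpt8, Ppbp, Gria3, Pclaf, Stmn1, Myb, Dut, H2ac24, Cpa3 and Syce2. Pclaf, a partner of PCNA in DNA copying, was at 560 CPM against 38.4. Stmn1, a microtubule regulator of dividing cells, was at 912 CPM against 67.0. Pf4 and Ppbp came nearly all from 1 barcode and Prss34, Mcpt8 and Cpa3 from a few, described below. The 12 lowest were Hbb-bt, Igkc, Hbb-bs, Hba-a1, Igha, Hba-a2, Mmp8, Jchain, Cstdc4, Asprv1, G0s2 and Ltf, of which the hemoglobin and antibody genes belong to other lineages.

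Monocyte-rule barcodes were nearer to the members. Of 3886 genes tested, 7.85% were called higher in members and 12.5% lower. S phase genes were again higher, 13 of 14, at 2137 against 709 CPM, and so were 10 of 15 G2 and M phase genes, at 2557 against 1257 CPM. In the high-fat diet library, where 14.8% of genes were called higher and 13.9% lower, all 14 and all 15 were. Ratios of the S phase and the G2 and M lists were 10.3 and 19.7 there, and 3.01 and 2.03 in the control. Most of these genes reached the minimum of 50 CPM in the high-fat diet library only through the members and could not have been called lower. In the control, too, a gene under 50 CPM in monocyte-rule barcodes could not have been called lower.

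Macrophage and antigen presentation genes were lower. H2-Aa, of MHC class II, was at 8.31 CPM in members and 1438 in monocyte-rule barcodes, and Cd74, its chaperone, at 24.9 against 2708. The other lowest genes were H2-Eb1, H2-Ab1, Tppp3, C1qa, Slfn5, Klrd1, C1qc, Acta2, Clec4a1 and Plbd1. All 4 Kupffer cell genes tested were called lower, and 5 of 8 adhesion genes were (Itga4, Cd44, Itgal, Itgam, Itgb2). The Kupffer cell genes reached the minimum of 50 CPM only through the monocyte-rule barcodes and could not have been called higher. Cybb, of the NADPH oxidase that makes the oxygen radicals of phagocytes, was called lower, at 349 CPM in members, 376 in neutrophil-rule and 1194 in monocyte-rule barcodes.

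Monocyte precursor genes were present in members all the same. Against neutrophil-rule barcodes, 8 of 9 tested were called higher, at 2590 against 689 CPM, a ratio of 3.76 (3.55 to 3.99). At least Csf1r of these reached the minimum of 50 CPM through the members alone and could not have been called lower. Ly6c2, the surface antigen of classical monocytes and a gene of the monocyte rule, was at 1038 CPM in 179 control members. Against monocyte-rule barcodes, 4 of the 6 genes outside that rule (Klf4, Cx3cr1, Csf1r, Mpeg1) were called lower. The genes of the list outside that rule summed to 778 CPM in members and 1677 in monocyte-rule barcodes.

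**Figure D2:**
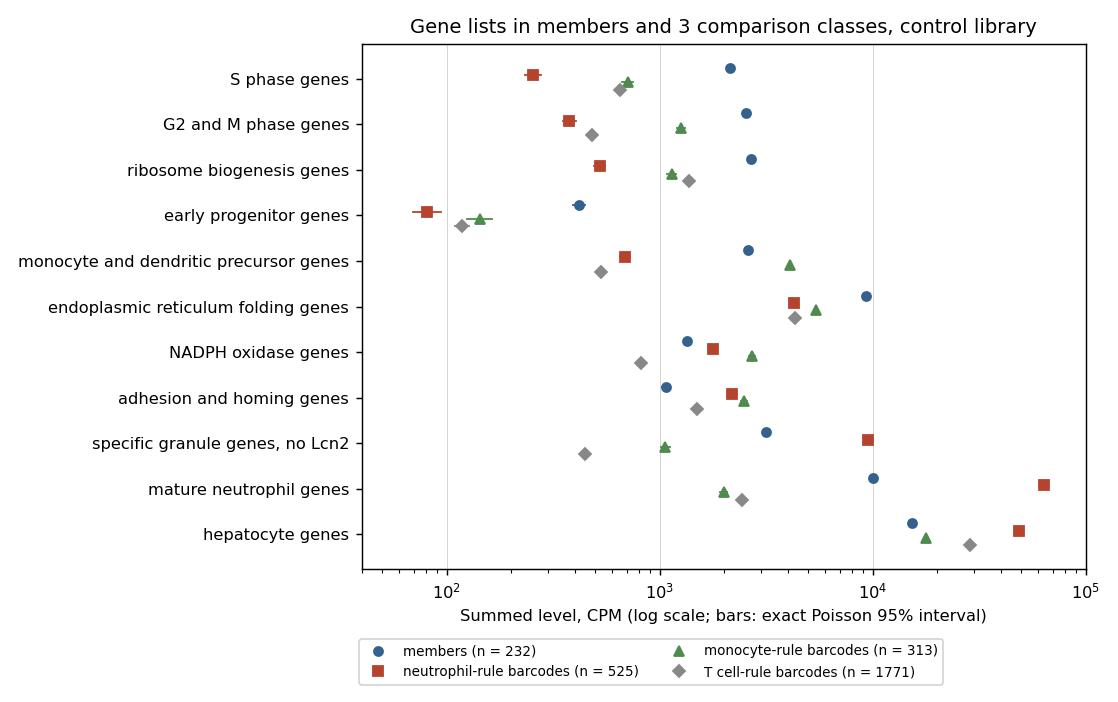
Summed level of 11 gene lists (CPM, log axis) in control members and in neutrophil-rule, monocyte-rule and T cell-rule barcodes; bars are exact Poisson 95% intervals, and the lists include genes that chose the comparison classes. Members hold the highest S phase level, 2137 CPM, and stand below neutrophil-rule barcodes in specific granule and mature neutrophil genes.

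The pathway that the study centred on, Toll-like receptor 4 (TLR4, the receptor of bacterial lipopolysaccharide), was thinly detected. Tlr4 had 18 UMIs in 17 of the 232 control members, 1 UMI on the high-fat diet and none with CCl4. Its control level was 8.31 CPM (4.92 to 13.1), against 16.5 in neutrophil-rule, 11.9 in monocyte-rule and 2.31 in T cell-rule barcodes. A Tlr4 UMI was seen in 7.33% of members and 0.621% of T cell-rule barcodes, and in 1.17% and 0.136% after thinning. Cd14, its co-receptor, was at 181 CPM in members, 343 in neutrophil-rule and 503 in monocyte-rule barcodes. Ly96, which encodes MD2, was at 12.5 CPM and the adaptor gene Myd88 at 28.6 CPM in control members. The list of 10 genes stood at 345, 294 and 299 CPM in control, high-fat diet and CCl4 members. Bdnf had 0, 1 and 0 UMIs in the members of the 3 libraries and Ntrk2, which encodes the BDNF receptor TrkB, had none. A count of 0 allows up to 3 counts, as a one-sided limit.

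Members of the control library were not alike. The 12 genes with the largest ratio of variance to mean, among 5797 ranked with a median ratio of 1.35, were S100a9 (637), S100a8 (542), Camp (371), Pf4 (253), Prss34 (232), Ngp (163), Alb (115), Ccl4 (110), Fabp1 (93.5), Elane (90.7), Mcpt8 (89.6) and Saa2 (88.0). Camp was seen in 27 of the 232 members, Prss34 in 9 and Pf4 in 4, whereas Alb was seen in 231 and Fabp1 and Saa2 in 232, so that these hepatocyte genes differed in amount. Ccl4, a chemokine gene, was seen in 139. Counts of UMIs per barcode in the gene lists were used to describe groups of members, with thresholds set after the data had been seen and with no test between the groups.

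**Figure D3:**
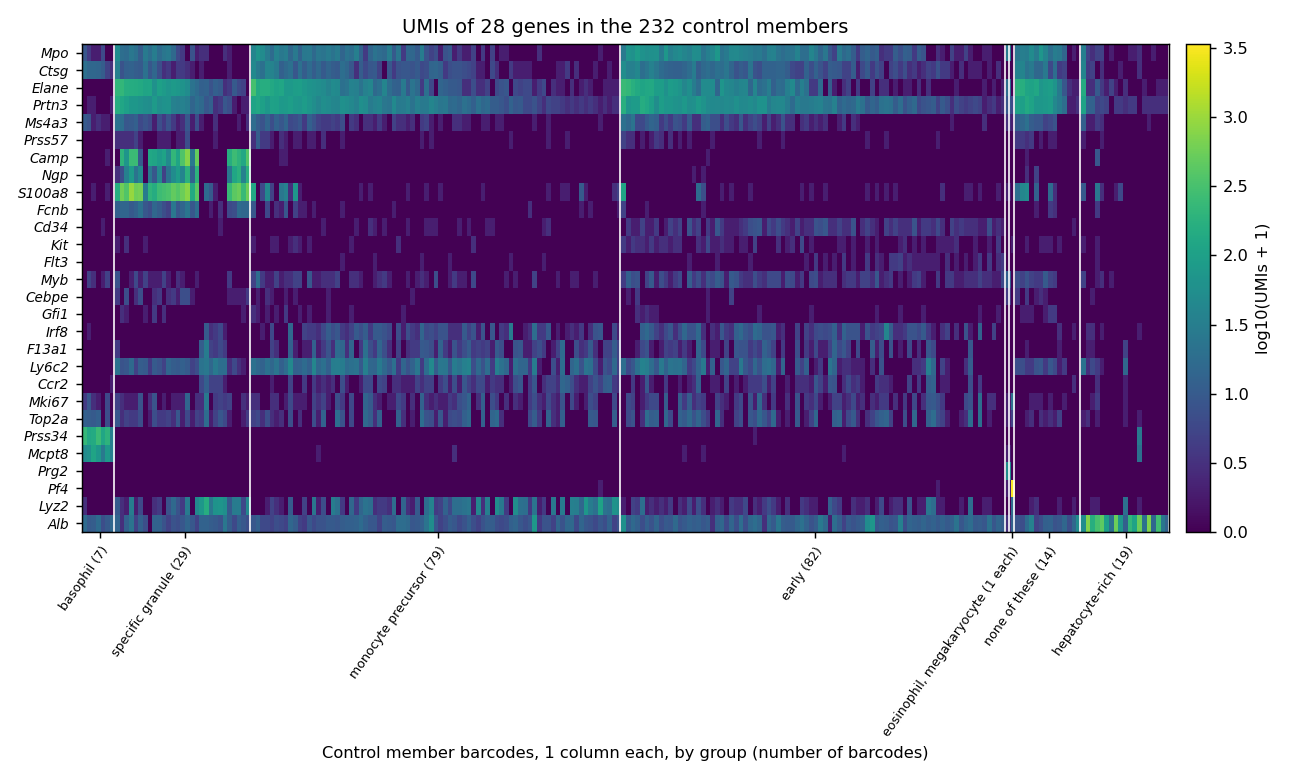
UMIs, as log10 of UMIs plus 1, of 28 genes (rows) in each of the 232 control members (columns); every barcode is drawn once, in the first group that it meets. Camp and Ngp fill most of the 29 columns of the specific granule group, Cd34 and Kit mark the early group of 82, and Irf8 and F13a1 run through the monocyte precursor group of 79. These genes are in the lists that set the groups, so the grouping fixed this pattern. A further 60 members met the monocyte precursor threshold but are drawn as early.

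The early group held at least 3 UMIs of early progenitor genes and counted 83 of 232 members (35.8%; 29.6 to 42.3), with 65 more that had 1 or 2. It includes the barcode with megakaryocyte RNA described below, which gave 112469 of the group's 969645 UMIs and lowers its CPM values. Cd34 was at 234 CPM in it and 16.7 in the other members, as the grouping fixed. Mpo was at 1958 CPM in the early group and 1383 in the other members, and Elane at 2662 and 4732. Without hepatocyte-rich members and those with basophil, eosinophil or megakaryocyte genes, Mpo was at 2215 and 1659 CPM and Elane at 3011 and 5822. Irf8 was at 450 and 300 CPM, and Myb at 276 and 178. S100a8 was at 161 CPM against 8198, Lyz2, lysozyme, at 226 against 1610, and Camp had 1 UMI in the group.

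The specific granule group, with at least 10 UMIs of that list without Lcn2, counted 30 members (12.9%; 8.90 to 17.9) and shared no barcode with the early group. Elane was at 8649 CPM in it and 3237 in the other members, Prtn3 at 5217 and 3393, and Ms4a3 at 572 and 296, while Ctsg was at 642 and 908. Cebpe, the factor that specific granule genes need, was at 211 CPM in 17 of the 30 members, against 16.0. Of the 30, 28 also held at least 10 UMIs of S, G2 and M phase genes, and Mki67 was at 400 CPM against 247.

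Members of this group differed. In 22 of its 30 members Camp was seen, with Ngp at 9033 CPM and Cebpe at 292 CPM in 16 of them, and with no UMI of Irf8 or F13a1. The other 8 had no Camp, and each held Chil3, with 4 to 50 UMIs. In 6 of these, Elane was at 2 to 12 UMIs, F13a1, of monocytes, at 3 to 29 and Lyz2 at 24 to 156, and 5 of the 6 held Irf8. The remaining 2 held 209 and 114 UMIs of Elane, 157 and 28 of S100a8 and 11 and 8 of Fcnb, with 9 and 0 of Lyz2 and none of Irf8. On the high-fat diet, 9 of 11 members of the group had Camp and 2 did not, and Irf8 was seen in 1 of the 9 and in both of the 2.

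The monocyte precursor group, with at least 10 UMIs of that list, counted 155 members (66.8%; 60.3 to 72.8), of which 60 were also in the early group and 14 in the specific granule group. Mpo was at 1778 CPM in it and 1354 in the other members, but at 1780 and 2520 CPM without the hepatocyte-rich members and those with basophil, eosinophil or megakaryocyte genes, so that its direction turned. Spi1, outside the list, was at 291 and 116 CPM, and at 292 and 223 without them. Proliferation, with at least 10 UMIs of S, G2 and M phase genes, was met by 196 members (84.5%; 79.2 to 88.9). It was met by 75 of the 83 early members and 148 of the 155 monocyte precursor members. After thinning to 1000 UMIs, 88.5% of control members held a UMI of these genes, against 47.3% of T cell-rule, 19.4% of neutrophil-rule and 45.9% of monocyte-rule barcodes.

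A few members carried another granulocyte program. A basophil group of 8 members (3.45%; 1.50 to 6.68), with at least 10 UMIs of basophil genes, held 1117 of the 1118 Prss34 UMIs of all control members, 453 of 460 of Mcpt8 and 130 of 137 of Cpa3, all granule protease genes. It also held 126 of 142 UMIs of Gata2, a factor of basophil and mast cell fate, and all 31 of Fcer1a, of the IgE receptor. These members met the azurophil rule through Ctsg, at 1263 CPM in all 8, Ms4a3 in 6 and Mpo in 6, while Elane had 0 UMIs in them and Prtn3 3. The basophil gene Mcpt8 lies 14.6 kb from Ctsg, in the same cluster of protease genes, and had 460 UMIs in 14 control members. A single member held 53 UMIs of Prg2, 12 of Epx and 10 of Prg3, eosinophil granule genes, beside 27 of Mpo and 17 of Elane.

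The barcode with the most UMIs, 112469 against 25883 in the next, carried megakaryocyte RNA. It held 3395 of the 3398 Pf4 UMIs of control members, 270 of 271 of Ppbp and 18 of Gata1. Of the rule genes it had 5 UMIs of Prtn3 and 1 of Ms4a3. It gave 5.19% of all control member UMIs. Its markers and those of the basophil group go against the name of a neutrophil or monocyte progenitor for these barcodes.

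At the other end, 19 control members (8.19%; 5.00 to 12.5) had at least 5% of their UMIs in hepatocyte genes. Their median rule count was 4 UMIs, Alb was at 21545 CPM and Mki67 at 24.3 CPM. Among high-fat diet members 8 of 37, and among CCl4 members 3 of 7, were as rich. What part hepatocyte RNA has in their entry to the rule was not tested.

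Across control members, the genes that followed the summed share of the 5 rule genes most closely were, as named after their values were seen, Sec61b (Spearman's rho 0.63), Clec12a (0.63), Srgn (0.61), Nkg7 (0.61), Plac8 (0.59), Ap3s1 (0.58) and Rgcc (0.57). Sec61b is a subunit of the channel into the endoplasmic reticulum and Srgn is the proteoglycan that packs granule proteins. The lowest were Ifitm3 (−0.52), Ptms (−0.50), S100a10 (−0.45) and Fth1 (−0.41). These values describe 232 barcodes of 1 library.

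Genes next to the rule genes were looked at within 50 kb. Plppr3, which lies on the other strand and overlaps Prtn3 at the 5′ ends of both genes, was at 36.5 CPM in control members and 0.379 in all other barcodes. Tspoap1, 7.7 kb from Mpo, was at 31.9 against 1.92 CPM, a ratio of 16.6 (12.0 to 23.0), while Lpo, 2.0 kb from Mpo and a sister peroxidase gene, had no UMI in these members. Cfd, complement factor D, 2.6 kb from Elane, had 1 UMI in the members. Ms4a2, 5.8 kb from Ms4a3 and a chain of the IgE receptor, was at 12.0 against 1.98 CPM. High levels were thus not shared by all neighbours of a rule gene.

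Members of the high-fat diet library were compared with those of the control, 37 against 232 barcodes. Of 3716 genes tested, 6.03% were called higher and 6.73% lower. Of the specific and gelatinase granule genes, 7 of 7 tested without Lcn2 were called higher (Fcnb, Chil3, Cd177, Camp, Ngp, Ltf, Mmp8). Cd177, Ltf and Mmp8 were at 19.9, 26.8 and 12.9 CPM in control members. These reached the minimum of 50 CPM only through the high-fat diet members and could not have been called lower. The list summed to 9128 CPM on the high-fat diet and 3160 in the control, a ratio of 2.89 (2.75 to 3.04). In T cell-rule barcodes the list ran the other way, at 34.9 and 444 CPM. Those of the control, but not those of the high-fat diet library, also held Mpo, Ctsg and Elane. They are therefore not a clean background for granule genes. Without the 8% of barcodes with the most UMIs in each library, which removes most high-fat diet members, the ratio was 1.43 (1.25 to 1.63).

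Camp was at 5593 CPM in 10 of 37 high-fat diet members, 2025 CPM in 27 of 232 control members and 119 CPM in 1 of 7 CCl4 members. After thinning, 25.0% of high-fat diet, 9.44% of control and 10.6% of CCl4 members held it. Ngp, of the same granules, was at 2204, 648 and 209 CPM in 10, 26 and 1 members. In members, S100a8 was at 12608, 4600 and 3583 CPM, and S100a9 at 11327, 4725 and 3732. The specific granule group held 11 of 37 members on the high-fat diet (29.7%; 15.9 to 47.0) against 12.9% (8.90 to 17.9) in the control, and 1 of 7 with CCl4. The intervals of the first 2 shares overlapped, and 10 barcodes hold the Camp RNA of the high-fat diet members.

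Progenitor genes stood lower on the high-fat diet. Early progenitor genes were at 253 CPM (190 to 329) against 420 (393 to 448), a ratio of 0.601 (0.449 to 0.790), and Cd34 of the 2 tested was called lower, at 41.3 against 114 CPM. Cd34 reached the minimum of 50 CPM through the control alone and could not have been called higher. Without the largest 8% of barcodes, the ratio was 0.485 (0.177 to 1.06). The early group was 7 of 37 members (18.9%; 7.96 to 35.2) against 35.8% (29.6 to 42.3), and these intervals overlap. Of 11 transcription factors tested, Cebpe was called higher, at 87.2 against 36.5 CPM, and Gata2, Myb, Myc and Runx1 lower. Cebpe reached the minimum of 50 CPM through the high-fat diet members alone and could not have been called lower. Gata2 reached it through the control alone and could not have been called higher. Gata2 without the 8 control members of the basophil group was at 7.60 CPM, under the 50 CPM minimum of a call. Myb was at 87.2 against 222 CPM and Runx1 at 101 against 276. T cell-rule barcodes held Myb at 13.9 against 48.6 CPM and Runx1 at 51.8 against 156, so that both were lower there as well, and the part of a difference between whole libraries was not tested. Cebpe was at 4.36 against 3.55 CPM and the early progenitor list at 145 against 118 CPM in T cell-rule barcodes. Depth per member was also lower on the high-fat diet, 5743 against 8481.5 UMIs, on which groups set by UMI counts depend.

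Dividing-cell genes were close in both when all members were counted. S phase genes had a ratio of 0.883 (0.796 to 0.977) and G2 and M phase genes of 0.959 (0.876 to 1.05), with 1 gene of 30 tested, Kif11, called lower and none higher. Without the 8% of barcodes with the most UMIs, the ratios were 0.521 (0.373 to 0.709) and 0.444 (0.294 to 0.643), so that this likeness rests on the largest barcodes. A UMI of either list was held by 89.3% of high-fat diet, 88.5% of control and 88.9% of CCl4 members after thinning. Monocyte precursor genes were at 2677 against 2590 CPM, a ratio of 1.03 (0.947 to 1.13). Endoplasmic reticulum folding genes were at 5969 against 9289 CPM, a ratio of 0.643 (0.607 to 0.680), with Hspa5, Pdia4 and Hsp90b1 of 12 called lower. Hspa5, the main chaperone of the endoplasmic reticulum, was at 436 against 1244 CPM, and in T cell-rule barcodes at 397 against 634.

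Basophil RNA was nearly absent from the high-fat diet members. The list had 13 UMIs there, 12 of them Hdc, against 2247 in the control, and all 5 genes tested were called lower. Apart from Hdc, these reached the minimum of 50 CPM only through the control members, chiefly the basophil group, and could not have been called higher. No high-fat diet member reached the basophil threshold, which with 37 members allows a share of up to 9.49% by the two-sided exact interval. NADPH oxidase genes stood at 1984 against 1352 CPM, with none of 6 called. Cxcr4, the receptor that holds progenitors in bone marrow, was the 1 adhesion gene of 8 called lower, at 45.9 against 188 CPM, and T cell-rule barcodes held it at 52.4 against 181. Among members, Cxcr4 reached the minimum of 50 CPM through the control alone and could not have been called higher.

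**Figure D4:**
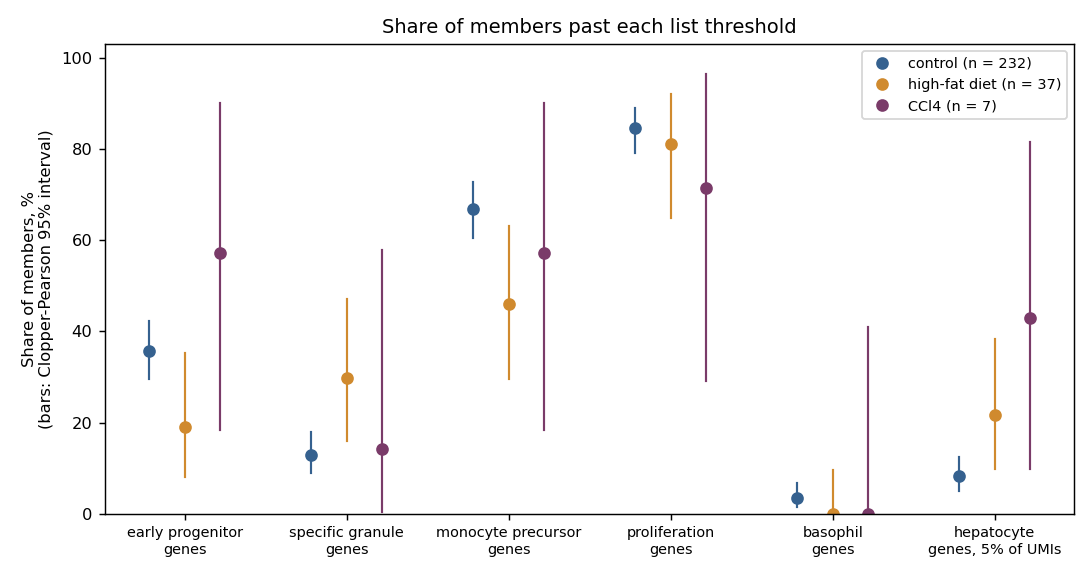
Share of members past each list threshold (%), by library; bars are Clopper-Pearson 95% intervals. The specific granule share was 29.7% on the high-fat diet and 12.9% in the control, the proliferation shares were 84.5%, 81.1% and 71.4%, and the intervals of the 7 CCl4 members are wide.

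Many of the largest differences between the libraries were in liver genes that T cell-rule barcodes carried as well. The lowest genes on the high-fat diet were Pf4, Prss34, Mt2, Saa3, Ppbp, Mcpt8, Saa2, Saa1, Apoa4, Apcs, Gata2 and Cpa3. Saa2, an acute phase gene of hepatocytes, was at 3745 CPM in control, 184 in high-fat diet and 29.9 in CCl4 members, and at 7991, 286 and 87.9 CPM in T cell-rule barcodes. Mt2, a metallothionein, was at 733, 9.18 and 0 CPM in members and 1703, 26.2 and 40.0 in T cell-rule barcodes. Both genes were thus ordered control first in either class. The highest genes were Acaa1b, Inmt, Igkc, Scd1, Thrsp, Igfbp2, Ltf, Cyp4a10, Upp2, Ehhadh, Me1 and Cd177. Scd1, which desaturates fatty acids, was at 477, 3673 and 1045 CPM in members and 778, 8670 and 2025 in T cell-rule barcodes. Acaa1b, of peroxisomal fat oxidation, was at 29.5, 546 and 119 CPM in members and 53.6, 1400 and 374 in T cell-rule barcodes. Of the 12, Ltf and Cd177 are neutrophil granule genes.

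With CCl4, 7 members with 33495 UMIs allow little. Of 4338 genes tested against control members, 20.3% were called higher and 17.8% lower, and at the minimum of 50 CPM 2 UMIs suffice to enter. Hepatocyte genes were at a ratio of 3.64 (3.47 to 3.81), with 6 of 8 called higher and Cyp2e1 lower, and they were higher in T cell-rule barcodes too, as given above. G2 and M phase genes had 102 UMIs, at 3045 CPM against 2557, with 3 of 19 tested called higher and 1 lower, and S phase genes 40 UMIs, at 1194 CPM against 2137. Early progenitor genes had 22 UMIs, at 657 CPM (412 to 994), and Cd34 was seen in 3 of the 7 members. The specific granule genes without Lcn2 had 29 UMIs in 2 members, most of them in 1 with Camp and Ngp. Hamp2, a hepcidin gene of hepatocytes and the highest of the CCl4 genes, had 10 UMIs in members, at 299 CPM against 0.462, and was at 686 CPM in T cell-rule barcodes against 1.06 in the control.

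**Figure D5:**
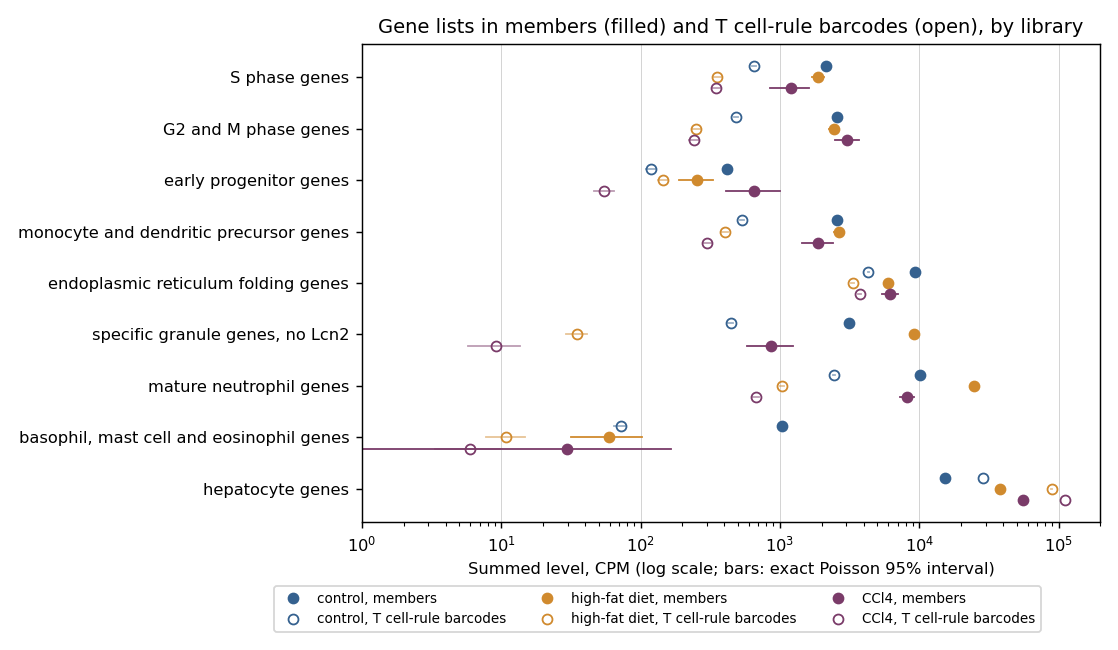
Summed level of 9 gene lists (CPM, log axis) in members (filled) and T cell-rule barcodes (open) of the 3 libraries; bars are exact Poisson 95% intervals. Specific granule genes without Lcn2 stand at 9128 CPM in high-fat diet and 3160 in control members and in the opposite order in T cell-rule barcodes, while hepatocyte genes have the same order of libraries in both. T cell-rule barcodes of the control also held UMIs of Mpo, Ctsg and Elane, and those of the high-fat diet library did not.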

How the data were processed

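Mouse liver cells of 3 conditions were measured by 10x 3′ single-cell RNA sequencing, 1 library each. Cell Ranger 7.2.0 made the deposited files, per the file headers, which hold the authors' unnormalized UMI counts of each gene in each barcode. The paper's methods name mm10 and the submitters' processing notes name GRCm39, so positions come from GENCODE M21 (GRCm38), which holds 52081 of the 55357 identifiers listed, and are not those of the counting.

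Barcodes were taken as deposited, each with at least 1629, 1827 and 1671 UMIs in control, high-fat diet and CCl4, and those over 30% mitochondrial UMIs (38, 1 and 0) entered no rule-chosen class but stayed in the totals and among other barcodes. No doublets were removed and no clustering was done. UMIs of a class were added up within a library, with 95% intervals that are exact Poisson for CPM, Clopper-Pearson for shares and exact conditional for ratios. Genes with at least 50 CPM on either side were called past a 2-fold ratio of CPM plus 5, without mitochondrial, ribosomal protein and predicted genes among those named. The genes named were those of 29 lists, the 12 highest and 12 lowest of a comparison, the 12 most overdispersed among genes with a mean of at least 0.2 UMIs, and neighbours within 50 kb. Genes that chose a class were left out of the ranked genes, list tallies and list ratios of comparisons with it. They were kept in the counts and shares of all genes tested. Thinning to 1000 UMIs used exact expected values. The members and lists were chosen with earlier results of these data known. The steps were tested on simulated data. Python 3.11.15, numpy 2.4.6, scipy 1.17.1, pandas 2.3.3 and matplotlib 3.10.9 were used.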

Additional observations from a re-analysis of the deposited data

How the results depend on the processing

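No paired analysis was possible because each group has 1 library, and no replicate could be left out. The share of control barcodes that are members, 2.06%, was 2.36% with a minimum of 2 rule UMIs, 1.71% with a minimum of 6, 1.65% with at least 3 rule genes, 2.35% with no limit on the 4 excluded genes, 1.72% with 0 UMIs also in Cd3d, Cd79b, C1qa, Siglech and Ncr1, and 1.48% without the 8% of barcodes with the most UMIs, where the high-fat diet share was 0.0693% in place of 0.285%. With a minimum of 20 CPM, 1785 genes were called higher against neutrophil-rule barcodes (1008 at 50 CPM), 572 higher and 738 lower against monocyte-rule barcodes (305 and 484), 423 higher and 644 lower for high-fat diet against control members (224 and 250), and 1642 higher and 2008 lower for CCl4 (882 and 770). With CPM plus 20, 150 genes were called higher and 140 lower on the high-fat diet, and 248 and 234 with the scaling below, so that lower calls outnumbered higher ones at CPM plus 5 and not there. Scaling to UMIs outside mitochondrial and the 20 most abundant genes gave 848 higher and 859 lower against neutrophil-rule barcodes and moved the median log2 ratio of all genes from 0.34 to 0.17. The G2 and M phase ratio of high-fat diet to control members, 0.959, was 1.01 with the 5 further lineage genes excluded and 1.07 with a minimum of 2 rule UMIs. Over the alternatives to the rule, including the later ones that left out hepatocyte-rich members or members with basophil, eosinophil or megakaryocyte genes, the ratio to neutrophil-rule barcodes ran from 7.77 to 11.2 for S phase, 5.13 to 9.74 for G2 and M phase, 4.69 to 5.70 for early progenitor, 0.329 to 0.558 for specific granule genes without Lcn2, 0.158 to 0.260 for mature neutrophil and 0.160 to 0.440 for hepatocyte genes, and the ratio of high-fat diet to control from 1.43 to 3.50 for specific granule genes without Lcn2 and 0.48 to 0.64 for early progenitor genes. The ratio of Mpo in the monocyte precursor group to that in other control members, 1.31, was 0.706 without hepatocyte-rich members and those with basophil, eosinophil or megakaryocyte genes, a setting chosen after the data had been seen. The 7 CCl4 members and the 37 on the high-fat diet limit what can be seen there.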
